A study of Mus musculus with 21 samples.

Results

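The sequences described here were the 16 8-mers that contain the core TGACGTG or its reverse complement CACGTCA, out of 65535 8-mers scored on protein binding microarrays. The core takes the first 6 bases of the cyclic AMP response element (CRE) palindrome TGACGTCA and ends in G, as in the unfolded protein response element (UPRE). It is a hybrid, since its last bases, ACGTG, also belong to the E-box CACGTG. The members were chosen by sequence, with earlier results of these data known, and were grouped by orientation and by the base that flanks the core.

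The DNA-binding domains of 2 proteins were used, CEBPB and CREB1, which belong to the basic leucine zipper (bZIP) class of transcription factors, with those of the point mutants CEBPB(V285A) and CREB1(A297V). Each was expressed from plasmid in a cell-free reaction as a fusion to GST. They were isolated domains read on synthetic DNA, with no partner protein and no chromatin. The second strand of each array was synthesised by primer extension from a mixture that held either unmodified cytosine (C), 5-methylcytosine (5mC) or 5-hydroxymethylcytosine (5hmC). The printed strand stayed unmodified, which made the sites hemi-modified. The 21 arrays fell into 10 groups. CEBPB was analysed on 5hmC (2 arrays) and CEBPB(V285A) on all forms (2 each). For C, 5mC and 5hmC in that order, CREB1 had 2, 1 and 2 arrays and CREB1(A297V) had 2, 2 and 4.

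bZIP proteins bind DNA as dimers, each monomer laying its basic region in the major groove of a half-site. CREB1 is the classical CRE-binding factor, and its half-site is TGAC, with a central CpG in the CRE palindrome. The UPRE is the site of XBP1 and ATF6, the bZIP factors that turn on chaperone genes in the unfolded protein response, while the E-box is the site of basic helix-loop-helix factors such as MYC and USF. In the hybrid core 1 half-site, TGAC, is kept, and the C that follows TGACGT in the palindrome is replaced by G.

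The members are shown as pairs, because each 8-mer of the forward orientation is the same duplex as its reverse complement. They differ in which strand was synthesised and, on the modified arrays, in which cytosines carried the modification. They were also read on different probes, with different sequence around the core. Sequences are those of the synthesised strand, 5′ to 3′, with the 7-base core in capitals and the flanking base in lower case.

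forward, A at the 5′ flank: aTGACGTG
its reverse complement: CACGTCAt
forward, G at the 5′ flank: gTGACGTG
its reverse complement: CACGTCAc
forward, C at the 5′ flank: cTGACGTG
its reverse complement: CACGTCAg
forward, T at the 5′ flank: tTGACGTG
its reverse complement: CACGTCAa
forward, G at the 3′ flank: TGACGTGg
its reverse complement: cCACGTCA
forward, C at the 3′ flank: TGACGTGc
its reverse complement: gCACGTCA
forward, T at the 3′ flank: TGACGTGt
its reverse complement: aCACGTCA
forward, A at the 3′ flank: TGACGTGa
its reverse complement: tCACGTCA

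The forward core holds 1 cytosine on the synthesised strand, the C of its CpG, and the reverse core holds 3. Where the synthesised strand read TGACGTG, the modified array therefore carried a single modified base in the core, in the TGAC half-site. Where it read CACGTCA, the modified bases were the C of the CpG, the C opposite the final G and the C opposite the G of TGAC. The strand assignment assumes that the printed sequence was the template, read 5′ to 3′, which was not tested. If it were the synthesised strand, the orientations would trade places throughout.

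The 8-mers overlap and are not replicates of each other. The 8 forward members rested on the same 70 array probes and the 8 reverse members on the same 72. No probe held both orientations or the CRE palindrome, 1 held an E-box, and 1 held another TGACGT or ACGTCA. A member was carried by 13 to 21 probes, with a median of 17, which was also the median over all 8-mers. The probes below gave the highest signals in CREB1 on C, 3 for each orientation, and are shown to put the core in its context of 35 bases.

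forward probe, G flank, with a further ACGTCA: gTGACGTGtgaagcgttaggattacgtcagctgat
forward probe, A flank: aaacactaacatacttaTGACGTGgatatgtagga
forward probe, G flank: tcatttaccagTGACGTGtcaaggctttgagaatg
reverse probe, T after the core: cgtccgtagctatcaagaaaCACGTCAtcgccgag
reverse probe, C after the core: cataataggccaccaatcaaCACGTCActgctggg
reverse probe, C on both sides: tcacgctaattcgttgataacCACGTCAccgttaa

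The authors deposited Z-scores for the 8-mers, each array having its median at 0 to within 0.001. They give relative preference and not affinity. The spread of all Z-scores of an array (SD) ran from 1.15 to 4.57 and was not scaled between arrays. Replicate arrays correlated over all 8-mers with Pearson's r from 0.335 to 0.968, lowest in CREB1(A297V) on 5hmC, where the median spot signal was close to the local background (1673 against 1743 on replicate 2). All tests below are two-sided limma tests on the Z-scores with Benjamini-Hochberg adjustment over all 8-mers or all strand pairs, and a member was called at an adjusted p under 0.05. Array identifiers carry a number, here called a run, although the labels do not say what it marks. Differences between runs cannot be told apart from group differences where each group fills its own run. The labels do not say whether replicates used separately made protein. The p-values thus measured the spread between these arrays, which may be technical. That spread was pooled for each 8-mer over all groups, although for many members it was wider on C in CREB1 and CEBPB(V285A). CACGTCAC, for example, had an SD of 30 in CEBPB(V285A) on C and 0.61 in CREB1 on 5hmC. Standard errors in comparisons with C may therefore be too small, and calls there too many. All comparisons with CREB1 on C share its 2 arrays. The share of all 8-mers whose arrays did not overlap was not computed, so counts of members without overlap have no background here.

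On unmodified DNA the hybrid core was a strong site for CREB1 and for CEBPB(V285A), below the CRE palindrome but far above the E-box. The mean Z-score of the 8 forward members was 27.3 ± 3.84 (SD, n = 2 arrays) in CREB1 and 31.9 ± 6.11 in CEBPB(V285A). The 8 reverse members gave 24.4 ± 3.88 and 33.8 ± 9.31. The CRE palindrome itself stood at 195 ± 24.9 in CREB1 and 155 ± 27.9 in CEBPB(V285A), and the 48 8-mers with CACGTG averaged 3.33 ± 0.496 and 4.17 ± 0.758. In CREB1, 9 of the 16 members were among the 100 8-mers with the highest means, and 15 were among the top 655, or 1 in 100 of all 8-mers. In CEBPB(V285A) 7 and 15 members reached those ranks.

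The Z-score of CRE-type heptamers varied with the last base. In CREB1 on C, the forward 8-mers that end the heptamer in A (TGACGTA) averaged 57.5, those in C (TGACGTC) 47.3, the hybrid in G 27.3 and those in T (TGACGTT) 17.4. The order A, C, G, T held on each of the 4 arrays of CREB1 and CEBPB(V285A) on C in the forward orientation. Among the core and the 21 heptamers that differ from it at 1 base, the hybrid ranked 3 of 22 on each of those arrays in both orientations, behind the heptamers ending in A and C. The 8 8-mers with TGACGTC include the palindrome at 195, and without it, an alternative chosen after seeing the data, the other 7 averaged 26.2 ± 6.56 in CREB1 and 43 ± 16.4 in CEBPB(V285A). The final C then lay below the hybrid on 1 CREB1 array in the forward orientation and on 1 CEBPB(V285A) array in the reverse, so in the forward orientation of CREB1 the mean of C above G rested on the palindrome. In the reverse orientation of CREB1 the 7 averaged 28.5 ± 6.03, above the hybrid on both arrays. The next heptamer in CREB1 on C was TGACGTT, followed by TGACGCG at 16.2. Every other change lowered the mean to 6.37 or less in the forward orientation, including TCACGTG, which is an E-box with a 5′ T, at 4.34.

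The base in front of TGAC made the widest difference between members. In CREB1 on C, ATGACGTG stood at 45.5 and 49.6 on the 2 arrays and GTGACGTG at 40.5 and 50.7. CTGACGTG stood at 12.1 and 17.3, and TTGACGTG at 4.1 and 6.11. The A and G flanks overlapped each other, and both lay above the C flank, which lay above the T flank, on both arrays. The same classes were seen on the other strand, where CACGTCAT (42.8 and 50.6) and CACGTCAC (37.8 and 50.2) lay above CACGTCAG (10.3 and 12.4), and CACGTCAA was lowest (6.05 and 6.56). CEBPB(V285A) followed the same order of classes on both arrays and both strands, with 63.5 and 53.1 for ATGACGTG and 5.53 and 5.01 for TTGACGTG. GTGACGTG, at 38.24 and 35.75, lay below ATGACGTG there and close to CTGACGTG (35.65 and 15.63) on the first array. On the other strand CACGTCAC (96.2 and 53.71) lay above CACGTCAT (59.86 and 51.78).

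The base after the core had a smaller range, and G, the base of the UPRE sequence TGACGTGG, was highest among the forward members. TGACGTGG stood at 40.1 and 57.4 in CREB1 on C and at 75.3 and 50.1 in CEBPB(V285A) on C. The other 3′ flanks gave 17.9 and 26.9 (C), 16.1 and 20.4 (T) and 20.5 and 11.7 (A) in CREB1, values that overlapped each other and lay below G. In the reverse orientation the pairs of the G and T flanks led. CCACGTCA stood at 28.3 and 43.5 and ACACGTCA at 30.9 and 31.2, above TCACGTCA (9.18 and 11.5) and GCACGTCA (8.03 and 11.5).

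The reading of a pair differed between orientations on unmodified DNA as well, where the duplex of both members is the same. In CREB1 on C the difference between a forward member and its reverse complement ran from -12.8 ± 2.9 (TGACGTGT) to 12.8 ± 1.47 (TGACGTGG), with the forward member higher in 6 of 8 pairs on one array and 5 of 8 on the other. Averaged over the 8 pairs it was 2.87 ± 0.0407. In CEBPB(V285A) on C it ran from -38 ± 28.3 (GTGACGTG) to 18.9 ± 6.21 (TGACGTGG). The members of a pair rest on different probes, with different sequence around the core.

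CEBPB(V285A) was compared with CREB1 on C because the mutation puts alanine, the residue of CREB1 at the matching place of the basic region, into CEBPB. TCACGTCA was called higher in the mutant, at 19.4 and 17.8 against 9.18 and 11.5 in CREB1, a difference of 8.25 ± 0.767 (SE, adjusted p = 7.95e-05). No other member was called, against 0.888 percent of all 8-mers called higher, and the members' differences ran from -8.61 (GTGACGTG) to 31 (CACGTCAC), with a median of 7.28 beside 0 for all 8-mers. The arrays of the proteins did not overlap for 7 of 16 members, a count with no share over all 8-mers to set beside it. The call was lost on an asinh scale, after quantile normalization and on Z-scores recomputed from probe signals, and its sign turned after background correction (-0.47). Without CEBPB(V285A) C replicate 2, 10 members were called higher, and without CREB1 C replicate 2, 2 were. The CEBPB(V285A) and CREB1 arrays came from different runs, so protein and run cannot be told apart here.

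CREB1(A297V), the reciprocal mutant with valine in the place of that alanine, gave low Z-scores to the hybrid core on C. ATGACGTG fell to 5.65 and 4.69 and GTGACGTG to 5.02 and 6.01, from 45.5 and 49.6 and from 40.5 and 50.7 in CREB1. The differences were -42.4 ± 3.78 (adjusted p = 5.66e-05) and -40.1 ± 3.12 (adjusted p = 1.74e-05). CACGTCAT fell from 42.8 and 50.6 to 1.65 and 3.78, a difference of -44 ± 2.71 (adjusted p = 4.55e-06). TGACGTGG fell from 40.1 and 57.4 to 2 and 3.21, a difference of -46.1 ± 6.42 (adjusted p = 0.00201).

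Of the 16 members 15 were called lower, against 1.42 percent of all 8-mers called lower. The arrays did not overlap for any of the 16, a count with no share over all 8-mers to set beside it. The median difference was -18.3, beside -0.025 for all 8-mers. CTGACGTG was not called (12.1 and 17.3 against -0.494 and 0.961, adjusted p = 0.113). Within run 470, which held all 4 of these arrays, 13 members were called, and 9 were without CREB1 C replicate 2 or without CREB1(A297V) C replicate 1. The mutant's arrays had median signals of 1470.5 and 1857 over local backgrounds of 556 and 1110, against 1235 and 1516.5 over 221 and 443.5 for CREB1. After background correction all 16 members were called.

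ATGACGTG and GTGACGTG were still the highest forward members on both arrays of the mutant. The C and T flanks, both low, kept no fixed order. CACGTCAA (T flank, 1.54 and 1.25) lay above CACGTCAG (C flank, 0.995 and 1.24), but barely so on the second array. Among forward members CTGACGTG (-0.4945 and 0.9607) lay above TTGACGTG (-0.4325 and 0.2452) on the second array only. In the reverse orientation the hybrid ranked last of the 4 last bases on both arrays. The difference in these orders between proteins was not tested.

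On 5mC the members had lower Z-scores than on C in CREB1 and CEBPB(V285A). In the single CREB1 array they ran from 1.05 (TCACGTCA) to 7.76 (ATGACGTG), with a mean of 4.51 for the forward and 3.44 for the reverse members. The A and G 5′ flanks again led the forward members, with GTGACGTG at 6.76 and TTGACGTG lowest at 1.49. In ranks ATGACGTG stood at 248 and GTGACGTG at 300, and 7 of the 16 members were among the top 1 in 100 8-mers of this array. The CRE palindrome stood at 22.4 on the same array and the E-box list averaged 1.63.

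Against CREB1 on C, 9 members were called lower on 5mC, 5 of them forward and 4 reverse, against 0.412 percent of all 8-mers called lower. The median difference was -16.8 in the forward and -17.1 in the reverse members, beside -0.0788 for all 8-mers. The array on 5mC lay below both arrays on C for all 16, again with no share over all 8-mers. Since CREB1 on 5mC had 1 array, assumed to vary like the other groups, these calls do not test that array. No member was called on the asinh scale. All 3 arrays were in run 470.

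In CEBPB(V285A) the core was low on 5mC in both orientations. ATGACGTG fell from 63.5 and 53.1 on C to 6.72 and 5.11 on 5mC, a difference of -52.3 ± 3.78 (adjusted p = 3.58e-07). CACGTCAT fell from 59.9 and 51.8 to 2.33 and 0.913, a difference of -54.2 ± 2.71 (adjusted p = 7.78e-09). TGACGTGG fell from 75.3 and 50.1 to 5.61 and 3.69, a difference of -58.1 ± 6.42 (adjusted p = 2.72e-05). All 16 members were called lower, against 3.49 percent of all 8-mers called lower. The forms did not overlap for any member, with no share over all 8-mers to set beside this. The median difference was -24.4 (beside 0.00268 for all 8-mers), and the C and 5mC arrays were separate runs, so form and run cannot be told apart.

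On 5mC the forward members of CEBPB(V285A) averaged 3.74 ± 0.566 and the reverse members 1.73 ± 0.384, and the forward member was the higher in 6 of 8 pairs on both arrays. The members with the highest means were ATGACGTG and GTGACGTG (6.81 and 4.06), and the lowest was GCACGTCA (-0.224 and -0.541). None was among the top 655 8-mers of this group, and 1 was in CREB1(A297V) on 5mC.

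In CREB1(A297V), where little was left on C, no member was called between 5mC and C, by limma, against 0.0336 percent of all 8-mers called in either direction. Also 0 members had an unadjusted p under 0.05, and the differences ran from -2.28 to 0.0928. Between proteins on 5mC, no member was called for CEBPB(V285A) against CREB1 (differences from -3.41 to 1.77, 1.91 percent of all 8-mers called in either direction). None was called for CREB1(A297V) against CREB1 (-4.43 to -0.441, 0.781 percent). Both counts at an unadjusted p under 0.05 were 0, and both comparisons rest on the single CREB1 5mC array. That array lay above both CREB1(A297V) arrays for all 16 members. It did not overlap the CEBPB(V285A) arrays, which were in another run, for 12 of 16, in either direction. Neither count of separated arrays has a share over all 8-mers to set beside it, and neither is read as a difference. The fit uses 1 spread per 8-mer over all groups, which takes in the spread on C. Differences in the ranges given above may therefore go uncalled.

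The change from C to 5mC was also compared between CEBPB(V285A) and CREB1. TCACGTCA was called, with a larger fall in the mutant (difference of the changes -8.45 ± 1.21, adjusted p = 0.00199). It was the single member called, against 0.249 percent of all 8-mers called lower. It is the member that already differed between the proteins on C, on the same arrays, and the call was lost on 4 other scales. Without CEBPB(V285A) C replicate 2, 8 members were called.

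On 5hmC, CREB1 gave the core intermediate Z-scores in the forward orientation and low ones in the reverse orientation. ATGACGTG stood at 24.5 and 19.2 and its reverse complement CACGTCAT at 1.56 and 2.27. GTGACGTG stood at 26.2 and 23.4 and CACGTCAC at 1.26 and 2.12. TGACGTGG stood at 21.4 and 16.9 and CCACGTCA at 3.15 and 4.1. The duplex of each pair has the same sequence, and the forward member carried 1 modified base in the core where the reverse member carried 3. The members of a pair also rest on different probes.

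The forward members averaged 12.2 ± 0.405 on 5hmC and the reverse members 1.6 ± 0.368, a difference of 10.6 ± 0.773 (SD, n = 2). On C the same difference was 2.87 ± 0.0407. The E-box list averaged 2.79 ± 0.294 in CREB1 on 5hmC, between the orientations, and the CRE palindrome stood at 28.8 ± 13.7, its arrays spread more widely than those of the forward members. The forward member was the higher in 8 of 8 pairs on both arrays on 5hmC. In ranks, ATGACGTG went from 18 on C to 72 on 5hmC, GTGACGTG from 22 to 52 and TGACGTGG from 17 to 95. CACGTCAT went from 20 to 4863, CACGTCAC from 26 to 5982 and CCACGTCA from 38 to 1315. On 5hmC 3 forward members were among the top 100 8-mers and no reverse member was among the top 655.

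The change of this asymmetry from C to 5hmC was tested on the within-array difference of each pair. It rose for TGACGTGT, whose excess over ACACGTCA went from -12.8 to 8.75 (change 21.6 ± 2.34 SE, adjusted p = 4.57e-06). It rose for ATGACGTG over CACGTCAT from 0.846 to 19.9 (change 19.1 ± 1.66, adjusted p = 2.5e-07), and for GTGACGTG over CACGTCAC from 1.6 to 23.1 (change 21.5 ± 6.62, adjusted p = 0.0347). It fell for TGACGTGC over GCACGTCA, from 12.7 to 5.89 (change -6.76 ± 1.59, adjusted p = 0.00854).

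In all, 3 pairs were called towards the forward member and 1 towards the reverse, against 15.5 percent of all 32639 pairs called in either direction. The 3 that rose were called on the asinh scale too, with adjusted p from 0.00674 to 0.0159, whereas TGACGTGC changed sign there (0.843). The other 4 pairs were not called, with changes from 0.775 to 2.68. Without CREB1 C replicate 2, or without CREB1 5hmC replicate 1, 2 pairs were called, both towards the forward member. The C and 5hmC arrays of CREB1 were in different runs, so form and run cannot be told apart, although each difference was taken within an array.

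The same direction was seen in the probe signals, which come from the same arrays as the Z-scores and are not independent evidence. The 70 forward probes had a median signal of 3.78 and 4.17 times the array median in CREB1 on C, and 2.09 and 2.29 times on 5hmC. The 72 reverse probes had 2.88 and 3.39 times on C, and 1.18 and 1.25 times on 5hmC. On C, 40 percent of the forward probes and 38.9 and 37.5 percent of the reverse probes were among the brightest 1 in 100 spots. On 5hmC, 20 and 15.7 percent of the forward probes and 0 of the 72 reverse probes were.

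Of the printed probes, the A-flanked forward probe (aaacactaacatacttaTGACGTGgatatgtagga) had a signal of 19.2 times the array median in CREB1 on C and 18.2 times on 5hmC. The reverse probe with T after the core (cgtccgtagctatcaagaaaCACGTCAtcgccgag) had 22.2 times on C and 1.47 times on 5hmC. The other 2 reverse probes went from 16.7 to 1.14 and from 12.9 to 1.5. The forward probe with the G flank and no second site (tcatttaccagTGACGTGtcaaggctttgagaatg) went from 14.8 to 6.8. The forward probe with the second site fell from 21.5 to 3.15, so forward probes were not alike.

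The orientations differed at each place of the core on the probe. Split by the position where the core starts on the synthesised strand, forward probes of CREB1 on 5hmC had a median log2 signal over the array median of 0.861 (positions 1 to 10), 1.81 (11 to 19) and 1.11 (20 to 29). Reverse probes had 0.0955, 0.345 and 0.449 in the same ranges. On C the values were 1.4, 2.72 and 2.04 for forward and 0.99, 2.57 and 2.48 for reverse probes.

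Other CRE-type heptamers showed a like asymmetry. In CREB1 on 5hmC, TGACGTA averaged 21.4 and its reverse complement TACGTCA 2.42, and TGACGTT averaged 8.81 and AACGTCA 0.537. The hybrid, at 12.2 and 1.6, lay between them. TGACGTC and GACGTCA averaged 9.72 and 7.84. The palindrome, the same on both strands, counts in both means, and without it they were 6.99 and 4.85. On C none of these 4 heptamers differed from its reverse complement by more than 10.3, the value for TGACGTA.

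Compared with C as single 8-mers, 15 of 16 members of CREB1 were called lower on 5hmC, against 5.27 percent of all 8-mers called lower. All 8 reverse members were called, with a median difference of -20.3, and 7 forward members, with a median of -12.6, beside 0 for all 8-mers. The difference was -44.8 ± 2.71 for CACGTCAT (adjusted p = 2.01e-06) and for ATGACGTG -25.7 ± 3.78 (adjusted p = 0.00137). CTGACGTG was not called, at 4.75 and 5.41 on 5hmC (adjusted p = 0.147). On the asinh scale 7 members were called, all of them reverse, and no forward member was. The count was 8 without CREB1 C replicate 2, 7 without CREB1 5hmC replicate 1 and 8 without CREB1 5hmC replicate 2.

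In CEBPB(V285A) on 5hmC the forward core was lower than in CREB1. ATGACGTG stood at 6.22 and 5.67 and GTGACGTG at 5.32 and 3.02, and the other 14 members lay between -0.578 and 3.45 on single arrays. All 16 members were called lower than on C, against 4.9 percent of all 8-mers called lower, with a median difference of -26.7 beside 0.00312 for all 8-mers. The difference was -52.3 ± 3.78 for ATGACGTG (adjusted p = 1.07e-06) and for CACGTCAT -56 ± 2.71 (adjusted p = 3.61e-08). The forms did not overlap for any member, with no share over all 8-mers to set beside this. Form and run cannot be told apart.

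The direction of the asymmetry was the same in this mutant at its low level. Forward members averaged 2.26 ± 0.17 on 5hmC and reverse members 0.294 ± 0.503, and the forward member was the higher in 8 of 8 and 7 of 8 pairs. The largest excess was that of ATGACGTG, 6.17 ± 0.575. Wild-type CEBPB on 5hmC, with no C arrays analysed here, gave 1.53 ± 1.41 for forward and -0.0487 ± 0.134 for reverse members, and the forward member was the higher in 7 of 8 and 6 of 8 pairs.

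Between CEBPB(V285A) and CREB1 on 5hmC, 3 members were called lower in the mutant, against 2.14 percent of all 8-mers. They were TGACGTGT (-8.72 ± 2.06, adjusted p = 0.0297), ATGACGTG (-15.9 ± 3.78, adjusted p = 0.0307) and GTGACGTG (-20.6 ± 3.12, adjusted p = 0.00169), all forward. The reverse members, low in both proteins, had a median difference of -0.874 and the forward members -7.03. With any 1 of the 4 arrays left out (CREB1 5hmC replicate 1 or 2, CEBPB(V285A) 5hmC replicate 1 or 2), 1 member was called. With other scalings of the Z-score 1 to 6 members were called, all lower, but not the same ones: of the 3 named, 1 was called on the asinh scale, 1 after quantile normalization, 2 on recomputed Z-scores and 0 after background correction. The asinh calls included 2 reverse members and the recomputed calls 1. The CEBPB(V285A) arrays were in run 534 and the CREB1 arrays in run 535, so protein and run cannot be told apart.

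Wild-type CEBPB was lower than CREB1 on 5hmC for ATGACGTG (6.06 and 1.25 against 24.5 and 19.2, difference -18.2 ± 3.78, adjusted p = 0.0165) and GTGACGTG (4.44 and 1.43 against 26.2 and 23.4, -21.8 ± 3.12, adjusted p = 0.00129). These 2 were the members called, against 2.42 percent of all 8-mers called lower. All 4 arrays were in run 535, and a fit of that run alone called 7 members, all lower, 5 forward and 2 reverse. GTGACGTG was among them (adjusted p = 0.0479) and ATGACGTG was not (adjusted p = 0.0532). After quantile normalization and after background correction 1 of the 2 was called. Leaving out CREB1 5hmC replicate 1, CREB1 5hmC replicate 2 or CEBPB 5hmC replicate 2 left 1 member called.

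No difference was called between CEBPB(V285A) and CEBPB on 5hmC. No member was called by limma (differences from -1.53 to 2.29), against 2.6 percent of all 8-mers in either direction, and 0 members had an unadjusted p under 0.05. On the asinh scale 1 was called, higher in the mutant. The mutant's arrays were in run 534 and those of CEBPB in run 535, so protein and run cannot be told apart. The standard errors ran up to 8.71 for CACGTCAC, because the fit uses 1 spread per 8-mer over all groups and this member varied widely on C.

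CREB1(A297V) was near 0 for nearly all members on 5hmC. Over its 4 arrays ATGACGTG ran from 0.808 to 1.46 and GTGACGTG from 1.43 to 2.06, and the group mean of every member lay between -1.15 and 1.73. Against CREB1, 4 members were called lower, all forward, against 6.22 percent of all 8-mers called lower. They were GTGACGTG (-23 ± 2.7, adjusted p = 0.000144), ATGACGTG (-20.6 ± 3.27, adjusted p = 0.00161), TGACGTGT (-9.79 ± 1.79, adjusted p = 0.00426) and TGACGTGA (-7.84 ± 1.9, adjusted p = 0.0219). Other scalings called 7 to 11 members, these 4 among them each time. They included reverse members on the asinh scale (2), on recomputed Z-scores (3) and after background correction (1). Of the 4, 2 were called without CREB1 5hmC replicate 2. The CREB1(A297V) arrays on 5hmC were in runs 470, 492 and 534 and those of CREB1 in run 535, so protein and run cannot be told apart there. Against the C arrays of CREB1(A297V) no member was called by limma (differences from -3.97 to 0.896, 0.343 percent of all 8-mers in either direction), with 0 at an unadjusted p under 0.05 and 3 on the asinh scale, lower on 5hmC. Its signals were close to the local background on 3 of the 4 arrays, at medians of 1399 over 1073, 1673 over 1743 and 76 over 68, and their part in the result was not tested.

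The fall from C to 5hmC was larger in CEBPB(V285A) than in CREB1 for ATGACGTG (difference of the changes -26.6 ± 5.34, adjusted p = 0.0188) and for TCACGTCA (-9.12 ± 1.08, adjusted p = 0.000613). These were 2 of 16 members, against 1.63 percent of all 8-mers called lower, and the median over members was -10.2 beside 0.0113 for all 8-mers. Neither was called on the asinh scale, after quantile normalization, on recomputed Z-scores (where 2 other members were) or after background correction, where ATGACGTG changed sign. TCACGTCA already differed between the proteins on C, on the same arrays, and on 5hmC was low in both (means of 0.993 in CREB1 and 0.1195 in CEBPB(V285A)). Without CEBPB(V285A) C replicate 2, 11 members were called, and without CREB1 C replicate 2, 5 were. Without CREB1 5hmC replicate 1 or without CEBPB(V285A) 5hmC replicate 2, 1 was.

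In CEBPB(V285A), 3 pairs changed towards the forward member and 2 towards the reverse on 5mC (5.18 percent of all pairs called), and likewise on 5hmC (3.76 percent). GTGACGTG, for example, stood 38 below CACGTCAC on C and 1.82 above it on 5mC, while TGACGTGG stood 18.9 above CCACGTCA on C and 2.73 above it on 5mC. The 5hmC arrays gave these 2 pairs an excess of 3.13 and 2.13, so both modified forms left little beside the values on C. Other pairs did not all shrink. The excess of ATGACGTG over CACGTCAT grew from 2.44 with unmodified cytosine to 4.3 (5mC) and 6.17 (5hmC). Averaged over the 8 pairs, the excess moved from -1.82 ± 3.2 (SD, C) to 2 ± 0.182 (5mC) and 1.97 ± 0.333 (5hmC). On the asinh scale 0 of the 8 pairs were called on 5mC and 1 on 5hmC (ATGACGTG), and 4 of the called pairs changed sign on 5mC.

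In CREB1 on 5mC the asymmetry was called lower for TGACGTGC (from 12.7 on C to 0.0182, adjusted p = 0.00125) and TGACGTGG (from 12.8 to 0.387, adjusted p = 0.00861). These were 2 of 8 pairs, against 0.695 percent of all pairs called, and rest on a single array. Neither was called on the asinh scale, and 1 was called without CREB1 C replicate 2. The forward excess on 5mC was 1.07 averaged over the pairs, against 10.6 on 5hmC in the same protein, a difference that was not tested. In CREB1(A297V) no pair was called on 5mC (0.0276 percent of all pairs called) or 5hmC (0.64 percent) by limma, with 0 at an unadjusted p under 0.05 in both.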

How the data were processed

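The DNA-binding domains were measured on 21 protein binding microarrays of 40330 spots each, whose probes hold 35 variable bases. The score of each 8-mer on each array, a Z-score, was made by the authors before deposit; how it was calculated is not given in the sources used here. Per the file headers, the deposited signal files hold the median intensity of each spot and of its local background, without subtraction. 8-mer names matched the printed sequence read backwards (Pearson r 0.603 to 0.986 between Z-scores and median probe signals, at most 0.818 for other readings), so 8-mers are given as the complement of their names. 409 8-mers had no probe and a Z-score of 0.

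limma 3.58.1 in R 4.3.3 was fitted to the Z-scores of all arrays, with 1 coefficient per group, a mean-variance trend and 11 residual degrees of freedom. The strand asymmetry was the within-array difference of an 8-mer and its reverse complement, over 32639 pairs. The fit was tested on simulated data with normal noise and the same SD in every group for each 8-mer. That test does not cover a spread that differs between groups, as it did here. The number of probes per 8-mer limits the precision of a Z-score. Probe signals were divided by the array median.

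All 16 members could be named, and besides them the CRE palindrome, the 48 E-box 8-mers, 21 heptamers 1 base from the core and 3 probes per orientation with the highest median rank in CREB1 on C. Members and lists were chosen with earlier results of these data known. Groups came from the labels. Replicate numbers were not taken as pairs (correlations of deviations from -0.381 to 0.206 over 36 pairs of groups). Alternatives were asinh, quantile normalization, Z-scores recomputed from log2 signals with and without normexp correction (offset 50), 8-mers with at least 8 probes, no trend, a replicate block, single runs and leaving out each array.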

Additional observations from a re-analysis of the deposited data

Results flagged for a closer look

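TGACGTGG in CREB1(A297V) on 5hmC had 1 array far from the other 3: replicate 2 stood at 2.87, against 0.562 to 0.941 for the others. Its gap to the nearest array was 0.836 of the range, above the critical value of 0.829 for 4 arrays. It was 1 of 16 members tested in this way, and chance flags about 1 in 20.

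The fall from C to a modified form differed between CEBPB(V285A) and CREB1, by the interaction test, in 3 cases. These were TCACGTCA on 5mC (difference of the changes -8.45) and, on 5hmC, ATGACGTG (-26.6) and TCACGTCA (-9.12). None of the 3 was called on the asinh scale, after quantile normalization, on recomputed Z-scores or after background correction. TCACGTCA already differed between the proteins on C, on the same arrays. The part that the differing runs have in these values was not tested.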

How the results depend on the processing

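Each count of called members or pairs was recomputed under the other settings. All 16 members of CEBPB(V285A) stayed called lower on 5mC and on 5hmC than on C with any array left out, and at least 13 did under the scales and models tried. Dropping the trend lost no call and added 1, for CREB1(A297V) against CREB1 on 5hmC (5 members against 4).

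For CEBPB(V285A) against CREB1 on C, the count of 1 became 0 on the asinh scale, after quantile normalization, on recomputed Z-scores and after normexp, 3 with at least 8 probes, and 1 to 10 with an array left out. For CREB1(A297V) against CREB1 on C, 9 to 13 members were called with an array left out. On 5hmC, CEBPB(V285A) against CREB1 gave 5 (asinh), 6 (recomputed), 1 (normexp) and 1 with any array left out. CREB1(A297V) against CREB1 gave 9 (asinh), 7 (quantile), 11 (recomputed), 7 (normexp) and 2 to 4 with an array left out. CEBPB against CREB1 gave 7 (asinh), 6 (recomputed), 4 (at least 8 probes), 7 (run 535 alone) and 1 to 3 with an array left out. CEBPB(V285A) against CEBPB gave 1 (asinh), and CREB1(A297V) on 5hmC against C gave 3 (asinh).

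For CREB1, 5mC against C gave 0 on the asinh scale and 6 to 9 with an array left out, and 5hmC against C gave 7 (asinh) and 7 to 13. The interaction on 5mC gave 0 on the asinh scale, after quantile normalization, on recomputed Z-scores and after normexp, and 1 to 8 with an array left out. The interaction on 5hmC gave 0 (asinh, quantile, normexp), 6 (at least 8 probes) and 1 to 11. The asymmetry of CREB1 on 5mC gave 0 (asinh, recomputed, normexp) and 1 to 2, and on 5hmC 2 to 3 with an array left out. That of CEBPB(V285A) gave 0 (asinh), 3 (quantile), 2 (recomputed) and 1 (normexp) on 5mC, and 1 (asinh), 2 (quantile), 3 (recomputed) and 1 (normexp) on 5hmC, with 4 to 6 when an array was left out of either. The causes were not tested.

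After normexp, the sign turned for TCACGTCA between CEBPB(V285A) and CREB1 on C (-0.47) and in the interaction on 5mC (0.31), and for ATGACGTG in the interaction on 5hmC (1.49). The asymmetry change of TGACGTGC in CREB1 on 5hmC turned to 0.843 (asinh) and 1.04 (recomputed). In CEBPB(V285A) on 5mC the change turned on the asinh scale for TGACGTGC (0.876), TGACGTGG (0.487), TGACGTGT (-0.323) and TTGACGTG (-0.127), and after normexp for TGACGTGC (0.667), TGACGTGG (0.215) and TGACGTGT (-0.0737). On 5hmC it turned for TGACGTGC (asinh, 0.461) and TGACGTGG (asinh 1.09, normexp 0.159).

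Whether the replicate numbers pair the arrays was not settled. Of 36 pairs of groups 9 had a correlation over 0.1, and in 6 of 9 groups replicate 1 correlated best with another replicate 1. With replicate number as a block, CREB1 on 5mC against C had 5 members called, CEBPB(V285A) against CREB1 on 5hmC had 1, and other counts stayed within 1.5 times.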

Other observations

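Among heptamers that differ from the core at 1 base, a pair was higher in CREB1 on 5hmC than on C in the forward orientation and lower in the reverse. TGATGTG, which has no CpG and no cytosine on that strand, averaged 8.43 on 5hmC and 1.48 on C, and its reverse complement CACATCA 0.664 and 1.56. TGACGAG averaged 10 and 6.37, and CTCGTCA 0.488 and 3.65. TGACGCG stood at a like level, 16 on 5hmC and 16.2 on C, and CGCGTCA at 0.891 and 12. These values were picked after they were seen and were not tested.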
